A study of Mus musculus with 10 samples.

Results

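Within spleens of mice labelled HOMO, that is Pbrm1-/-, germinal center B cells of the fraction labelled CC were compared with those of the fraction labelled CB. The comparison holds 2 CC and 2 CB libraries, 4 of the 10 RNA-seq libraries of the series, and was chosen by these labels alone. The other 6 libraries, 3 CB and 3 CC, come from mice labelled WT (Pbrm1+/+). All mice were C57BL/6 and 8 to 10 weeks old, and all cells were taken at day 10 after immunization and enriched with beads for the lectin PNA, which binds germinal center B cells. Of 55421 genes in the count table, 16596 passed the filter on low counts and were tested. The immunogen, the way CB and CC were separated, the change made in Pbrm1 and the cells that carry it are not stated in the labels. A transcript used to separate the fractions, if there was one, would differ between them for that reason, and which one that might be is not known. No label ties a library to an animal of its own, so the p-values describe the spread among these libraries, which may be partly technical.

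In a germinal center, B cells divide and mutate their antibody genes in the dark zone, and test the product against antigen and T cells in the light zone. Dark zone cells are known as centroblasts, often shortened to CB, and light zone cells as centrocytes, or CC. Light zone cells that bind antigen and receive CD40 signals from T cells switch on NF-kB and MYC, grow, and return to the dark zone to divide. The protein made from Pbrm1 reads acetylated histones through its bromodomains and belongs to PBAF, one of the SWI/SNF chromatin remodellers. Their motor is encoded by Smarca4, the gene in the title of the study.

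The 4 HOMO libraries differed in depth, in counts at the ribosomal RNA locus and in base composition, and each of these separated the fractions. The CB libraries, numbered 2 and 3 in the count table, held 27034386 and 67625110 counts, and the CC libraries of the same numbers held 15514361 and 9954006. Counts at the ribosomal RNA locus made up 8.72% and 9.43% of the CB libraries and 10.8% and 11.2% of the CC libraries. The deviation of a gene's level from its mean over the 10 libraries followed GC content across 8907 genes in the CB libraries (Spearman rho -0.63 and -0.60) more than in the CC libraries (-0.17 and -0.22), so base composition moved with the fraction. Genes are not independent replicates, and these coefficients are given as a description. For genes at or above 3 on the average log2 CPM scale, the median coefficient of variation between the 2 libraries of a group was 3.24% in HOMO CB and 4.91% in HOMO CC, against 10.9% and 11.6% among the 3 libraries of WT CB and WT CC.

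The 4 genes that mark the fractions had levels on the sides known for centroblasts and centrocytes. Levels are CPM, counts scaled to library size with TMM factors, and changes are log2 CC against CB from edgeR's quasi-likelihood test, which estimates the spread over all 10 libraries. Cd83 (mm10 chromosome 13, 43784775 to 43803132), an activation marker of light zone cells, stood at 156.6 and 126.6 CPM in the CB libraries and at 389.1 and 385.2 CPM in the CC libraries (log2 1.45, SE 0.137, edgeR adjusted p = 0.000422). Myc (chromosome 15, 61985391 to 61990374), the growth factor-induced transcription factor, stood at 30.32 and 30.67 CPM in CB and 69.82 and 68.41 CPM in CC (log2 1.18, SE 0.11, edgeR adjusted p = 0.000409). Both were higher in each CC library than in either CB library. Cxcr4 (chromosome 1, 128588199 to 128592293), the chemokine receptor that holds cells in the dark zone, stood at 299.3 and 282.2 CPM in CB and 110.6 and 105.5 CPM in CC (log2 -1.43, SE 0.189, edgeR adjusted p = 0.00158). Gcsam (chromosome 16, 45610380 to 45622867), which restrains the movement of germinal center B cells, stood at 278 and 286.2 CPM in CB and 55.9 and 57.31 CPM in CC (log2 -2.32, SE 0.182, edgeR adjusted p = 0.000223). Neither overlapped between the fractions, and the calls of all 4 markers were kept without any 1 of the 10 libraries (edgeR adjusted p of at most 0.0338).

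Of the 16596 genes tested, 409 (2.46%) rose and 495 (2.98%) fell in HOMO CC at an adjusted p under 0.05, together 5.45%. Of these, 172 rises and 145 falls were at least 2-fold. The median log2 change was 0.87 for the genes that rose, -0.79 for those that fell and -0.01 for all genes tested. The libraries of the 2 fractions did not overlap for any of the 904 called genes. Without overlap alone the count was far larger: both CC libraries were above both CB libraries for 4784 genes (28.8%) and below them for 5502 (33.2%). With upper-quartile scaling, which moved the median of all genes to 0.05, 586 rose and 416 fell, so that 58.5% of the calls were higher against 45.2% with TMM. The number of calls depended on the libraries that give the spread. It was 4452 with only the 4 HOMO libraries, 901 of the 904 genes among them with the same direction, and between 174 (without HOMO CB library 3) and 258 (without HOMO CB library 2) when 1 HOMO library was left out. It was 1546 without WT CB library 3 and 1586 without WT CC library 3, and 0 when 1 CB and 1 CC library of HOMO remained. CB and CC libraries of the same number deviated together, and with the number as a block (the replicate block) 1874 genes passed, 867 higher and 1007 lower, 900 of the 904 among them. Where the block moves the count of a gene list by over 1.5 times, its numbers of higher and lower genes stand beside the count.

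**Figure D1:**
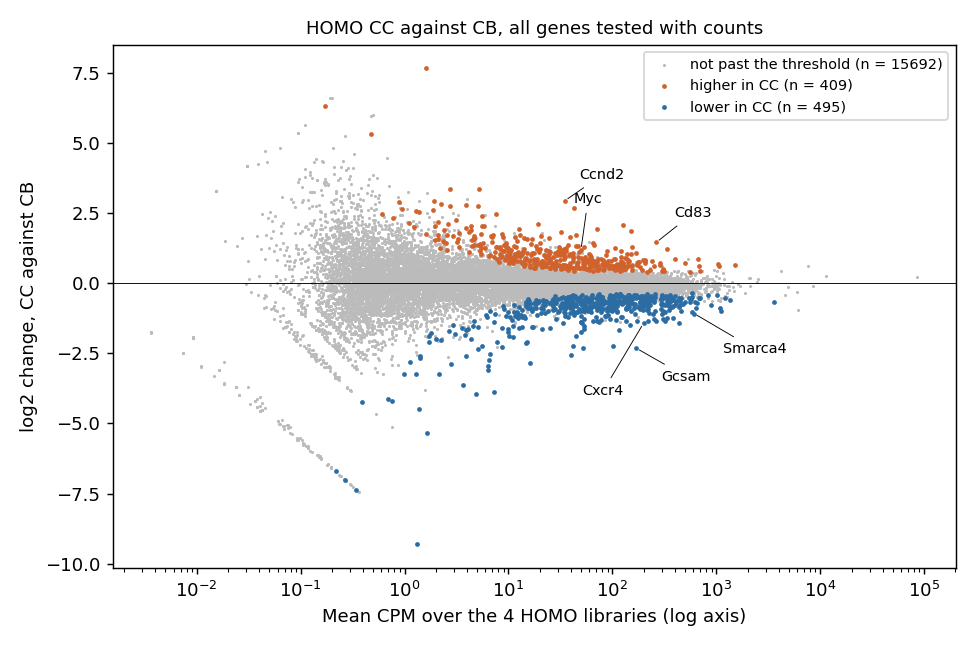
Mean CPM over the 4 HOMO libraries (x axis, log scale) against the log2 change of CC against CB (y axis) for 16573 of the genes tested; 23 genes with no count in these libraries are not drawn. Orange points are the 409 genes that rose in CC, blue points the 495 that fell and grey points the others, with 6 genes named; the diagonal lines of grey points at low CPM are genes with few counts.

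The 12 largest falls, among genes with a mean of at least 5 CPM in CB, included genes at about 1 CPM or less in CC. Ret, a receptor tyrosine kinase gene, stood at 12.63 and 14.63 CPM in CB and 0.9154 and 0.9489 CPM in CC (log2 -3.87, SE 0.378, edgeR adjusted p = 0.000422). Tgfa, a ligand of the EGF receptor, went from 6.738 and 6.845 CPM to 0.6713 and 0.3796 CPM (log2 -3.63, SE 0.355). Tifa, an adaptor in TRAF signalling, went from 25.71 and 30.61 CPM to 3.235 and 4.744 CPM (log2 -2.84, SE 0.287). The highest CC library of each was several times below the lowest CB library. Reln, a secreted glycoprotein gene best known from the brain, stood at 62.15 and 75.03 CPM in CB and 11.05 and 12.53 CPM in CC (log2 -2.55, SE 0.17, edgeR adjusted p = 0.000147). Serinc5, a membrane protein gene, stood at 163.8 and 167 CPM in CB and 36.37 and 33.97 CPM in CC (log2 -2.23, SE 0.184). The remaining large falls were the sodium channel gene Scn8a (log2 -3.10), the mucin-type glycosyltransferase gene Gcnt3 (-2.94), the zinc finger gene Zkscan16 (-2.73), the nuclease gene Dnase1 (-2.58), Gcsam, the selenoprotein gene Selenop (-2.31) and the reductase gene Ptgr1 (-2.26). Of these 12 genes only Selenop lost its call in any fit without 1 library, in 7 of them: without any 1 HOMO library or any 1 WT CB library (edgeR adjusted p up to 0.207). It was also lost with the replicate block and an offset for GC content together (0.0534).

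The 12 largest rises among genes with a mean of at least 5 CPM in CC included Ccnd2, which encodes the G1 cyclin D2. It stood at 8.13 and 7.971 CPM in CB and at 58.65 and 64.71 CPM in CC (log2 2.94, SE 0.584, edgeR adjusted p = 0.025), and both CC libraries were far above both CB libraries. Shank1, a scaffold protein gene, stood at 11.57 and 11.38 CPM in CB and 75.19 and 73.16 CPM in CC (log2 2.69, SE 0.342). Il4i1, a secreted amino acid oxidase gene, stood at 53.25 and 43.57 CPM in CB and 214 and 193.8 CPM in CC (log2 2.08, SE 0.234, edgeR adjusted p = 0.000812). Cfp, the properdin gene of the complement system, went from 7.105 and 7.415 CPM to 34.05 and 27.9 CPM (log2 2.09, SE 0.217). These genes did not overlap between the fractions, which was a condition of their choice. At lower levels, Fcrl5, an Fc receptor-like inhibitory receptor of B cells, went from 0.6592 and 1.141 CPM to 10.56 and 8.54 CPM (log2 3.37, SE 0.802, edgeR adjusted p = 0.038). Tnfrsf8, which encodes CD30, rose by log2 2.75, the cytokine subunit gene Ebi3 by 2.39, the homeobox gene Hhex by 2.05, Ppfia4 by 2.80, Trabd2b by 2.48, Plscr1 by 2.27 and Carmil3 by 2.05. Trabd2b, Ebi3, Cfp and Il4i1 were called without any 1 library. Without HOMO CB library 3 the calls of Ppfia4, Tnfrsf8, Shank1 and Plscr1 were lost (edgeR adjusted p = 0.0693, 0.0566, 0.0532 and 0.0515). Those of Fcrl5, Ccnd2, Hhex and Carmil3 were lost without any 1 of the HOMO libraries (edgeR adjusted p up to 0.292, 0.257, 0.14 and 0.128), that of Ccnd2 also with the replicate block (0.0534) and with the block and an offset for GC content (0.0736), and that of Fcrl5 also without WT CB library 1 or 2.

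**Figure D2:**
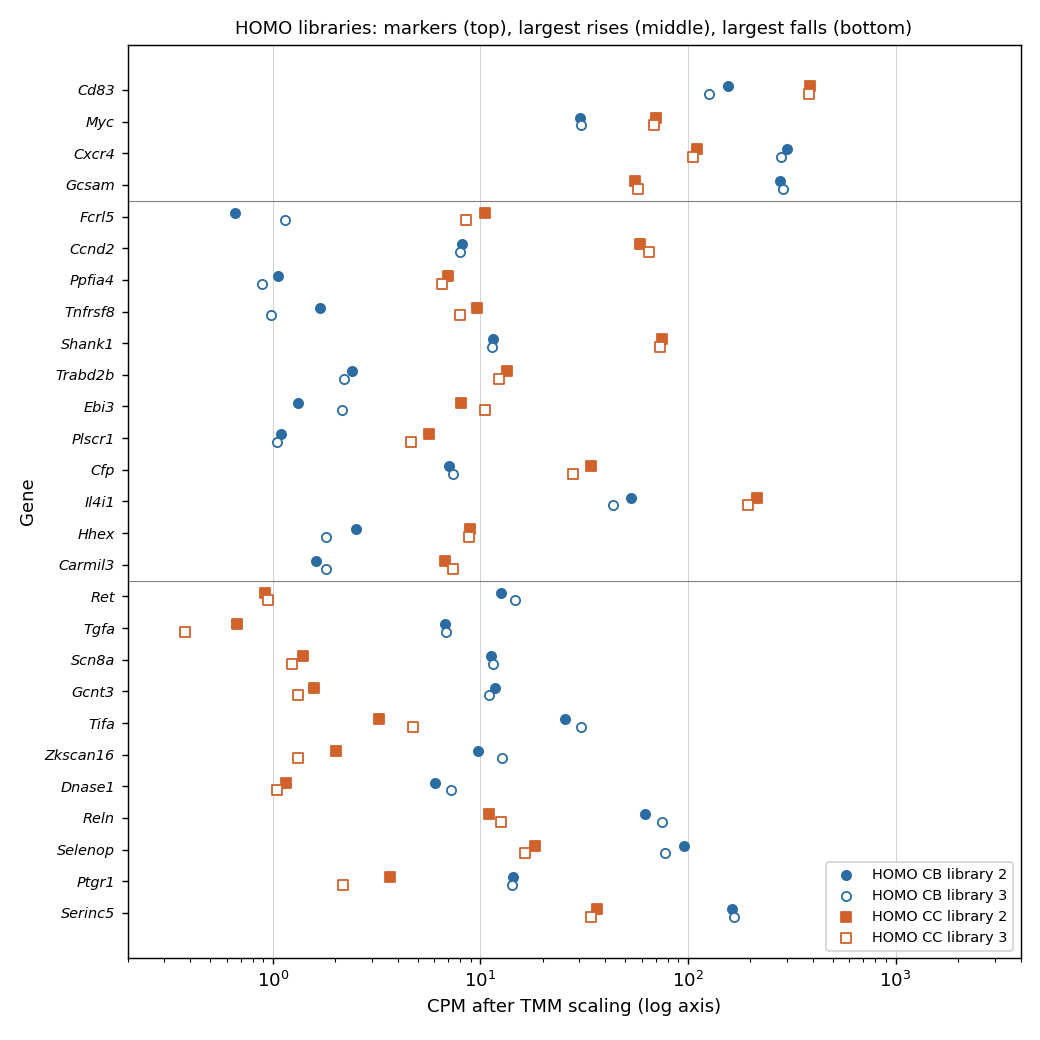
CPM (x axis, log scale) of the 4 markers, the 12 largest rises and the 12 largest falls in each of the 4 HOMO libraries, with Gcsam shown among the markers. Circles are CB and squares CC, filled for library 2 and open for library 3. The CC and CB symbols of every gene shown are separate, which for the largest rises and falls was a condition of their choice. The symbols of 1 fraction lie apart for some genes at low levels, such as Tgfa in CC (0.6713 and 0.3796 CPM).

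Genes of the G2 and M phases, which build the spindle, condense and separate the chromosomes and trigger division, were lower in CC as a group. Of 69 tested, 50 fell and 0 rose, against 2.98% of all genes falling, and the list's median log2 change was -0.76 against -0.01 over all genes. Every one of the 69 had a negative log2 change, and 68 had both CC libraries below both CB libraries, against 33.2% of all genes. To show what their promoters share, the windows of the 3 genes with the smallest p that hold both motifs described below are printed from the RefSeq promoter table for mouse (build GRCm38.p6, the patch of mm10), 5′ to 3′ on the gene's strand, from 250 bases before the start to 20 after. Capitals mark the CHR element (TTTGAA or TTCGAA) and CCAAT boxes (CCAAT), each searched on both strands.
Cenpf, chr1:189688067-189688336, minus strand: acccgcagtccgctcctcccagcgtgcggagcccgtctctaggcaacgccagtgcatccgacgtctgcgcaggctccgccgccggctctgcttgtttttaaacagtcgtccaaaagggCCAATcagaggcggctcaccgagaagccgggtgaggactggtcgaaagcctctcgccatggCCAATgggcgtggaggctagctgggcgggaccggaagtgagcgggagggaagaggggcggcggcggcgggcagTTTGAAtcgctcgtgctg
Aspm, chr1:139454523-139454792, plus strand: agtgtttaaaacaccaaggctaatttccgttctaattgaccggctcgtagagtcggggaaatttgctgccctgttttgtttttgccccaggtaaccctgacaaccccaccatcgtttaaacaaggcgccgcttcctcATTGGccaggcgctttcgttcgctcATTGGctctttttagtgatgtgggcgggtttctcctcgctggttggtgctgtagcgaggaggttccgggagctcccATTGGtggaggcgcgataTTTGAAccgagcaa
Cdc25b, chr2:131186698-131186967, plus strand: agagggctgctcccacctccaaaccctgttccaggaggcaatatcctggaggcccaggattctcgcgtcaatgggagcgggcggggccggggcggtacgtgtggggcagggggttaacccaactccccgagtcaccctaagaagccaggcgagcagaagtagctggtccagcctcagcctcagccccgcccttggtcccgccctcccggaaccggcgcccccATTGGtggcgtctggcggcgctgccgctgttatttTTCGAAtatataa
The CHR is the element through which the MuvB complexes are known to act on late cell cycle genes, and CCAAT boxes are bound by NF-Y. Over the whole window of 300 bases, both motifs were present in 63.1% of the 65 promoters found for 59 of the 69 listed genes, against 7.52% of all 32851 promoters in the table and 5.89% of those of the genes tested. The CHR, with or without CCAAT, was in 72.3% against 19.2% of all, and CCAAT, with or without the CHR, in 76.9% against 37.4%. A match is a description of the letters in this window and not evidence of binding.

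Cenpf, which encodes a kinetochore protein, stood at 432.2 and 483.6 CPM in CB and 169.5 and 193.6 CPM in CC (log2 -1.34, SE 0.146, edgeR adjusted p = 0.000596). Aspm, a spindle pole protein gene, stood at 323.8 and 381.2 CPM in CB and 135.5 and 158.6 CPM in CC (log2 -1.26, SE 0.141). Cdc25b, the phosphatase gene that helps start mitosis, stood at 368 and 383.5 CPM in CB and 146.1 and 149.5 CPM in CC (log2 -1.35, SE 0.154). In all 3 the lower CB library was over 2-fold above the higher CC library. G2e3, an E3 ubiquitin ligase gene, went from 122.3 and 125.6 CPM to 53.52 and 58.93 CPM (log2 -1.14, SE 0.13). Other members, named for their roles after their values were seen, include the cyclin gene Ccnb1 (100.9 and 122.2 CPM in CB, 38.39 and 51.9 CPM in CC, log2 -1.31), the mitotic kinase gene Plk1 (log2 -0.93), the proliferation marker gene Mki67 (4339 and 4512 CPM in CB, 2820 and 2695 CPM in CC, log2 -0.68) and the topoisomerase gene Top2a (log2 -0.59). The calls of Cenpf, Aspm, Cdc25b, G2e3 and Ccnb1 were kept without any 1 library, as were those of 8 of the 50 members that fell. The call of Plk1 and that of Top2a were lost without any 1 HOMO library (edgeR adjusted p up to 0.18 and 0.12), and that of Mki67 without HOMO CB library 3 or CC library 3 (up to 0.0587). The number of members that fell was between 9 (without HOMO CC library 2) and 31 (without HOMO CB library 2) when 1 HOMO library was left out, 10 without HOMO CB library 3 and 16 without HOMO CC library 3, and 67 with only the 4 HOMO libraries. Its median stayed between -0.83 and -0.68 in all fits without 1 library and was -0.66 with an offset for GC content. Cohesin and condensin genes followed: 5 of 20 fell and 0 rose (11 and 0 with the replicate block), against 2.98% of all genes falling. The list's median was -0.42, or -0.20 with the GC content offset. The cohesin subunit gene Rad21 went from 478.2 and 502.5 CPM to 268.7 and 284.7 CPM (log2 -0.83, SE 0.115, edgeR adjusted p = 0.00216) and kept its call without any 1 library. Those of the condensin genes Smc4 (log2 -0.66) and Ncapg (-0.63) and of the acetyltransferase gene Esco2 (-0.70) were lost without any 1 HOMO library (edgeR adjusted p up to 0.118, 0.164 and 0.117), and that of Ncapg also with the GC content offset (0.142).

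Of 55 DNA replication genes 1 rose and 2 fell, shares near those of all genes (2.46% and 2.98%); with the replicate block 3 rose and 4 fell, and the list's median log2 change was -0.02. The helicase gene Mcm5 stood at 432.3 and 406.9 CPM in CB and 436.7 and 414.2 CPM in CC, and the sliding clamp gene Pcna at 354.6 and 353.3 CPM in CB and 344.7 and 336.9 CPM in CC, 2 genes named for their roles. Neither passed, with log2 changes of 0.02 (SE 0.148) and -0.05 (SE 0.156). The kinase subunit gene Dbf4 fell (log2 -0.62, edgeR adjusted p = 0.00919), and the origin recognition gene Orc1 rose by log2 0.53 (edgeR adjusted p = 0.0491). The Dbf4 call was lost without HOMO CC library 2, CB library 3 or CC library 3 (edgeR adjusted p up to 0.123) and with the GC content offset (0.11). The Orc1 call was lost without any 1 of 7 libraries (the 4 HOMO libraries, WT CB 1 and 2 and WT CC 1, edgeR adjusted p up to 0.381) and without the low-count filter (0.0785). Of 50 replication-dependent histone genes none passed by edgeR (0 rose and 2 fell with the replicate block), but 41 had both CC libraries below both CB libraries, against 33.2% of all genes, and the list's median was -0.31. With only the 4 HOMO libraries 35 of them passed as lower. Hist1h2bm, for example, stood at 276.7 and 290 CPM in CB and 212 and 170.5 CPM in CC (log2 -0.57, SE 0.265, edgeR adjusted p = 0.282), and passed without the low-count filter (0.00225) or without WT CB library 3 (0.0452). Among 22 genes of the G1 phase, Ccnd2 was the 1 that rose, a call lost with the replicate block (edgeR adjusted p = 0.0534), while the inhibitor gene Cdkn2d (28.57 and 32.02 CPM in CB, 14.46 and 14.61 CPM in CC, log2 -1.06) and the pocket protein genes Rbl1 (log2 -0.40) and Rbl2 (-0.38) fell. Their calls were lost without any 1 HOMO library (edgeR adjusted p up to 0.124, 0.275 and 0.312). Those of Rbl1 and Rbl2 were also lost without WT CB library 1, with upper-quartile scaling (edgeR adjusted p = 0.0585 and 0.0892), without the low-count filter (0.0743 and 0.138) and with the GC content offset (0.182 and 0.059). That of Rbl2 was lost too with RLE scaling (0.0531) and without WT CC library 1, WT CB library 2 or WT CC library 2. Of 20 genes of the E2F, MYB, FOXM1 and MuvB factors 1 fell and 0 rose (3 and 1 with the replicate block), namely Mybl1 (973.7 and 929.6 CPM in CB, 709.8 and 712.3 CPM in CC, log2 -0.42), whose call was lost without any 1 HOMO library (edgeR adjusted p up to 0.242), without WT CB library 1, with upper-quartile scaling (0.0635), without the low-count filter (0.0717) and with the GC content offset (0.58).

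Genes of the NF-kB pathway were higher in CC as a group. Of 28 tested, 13 rose and 0 fell (20 and 0 with the replicate block), against 2.46% of all genes rising, with a median log2 change of 0.67. All 28 had a positive log2 change, and in 27 both CC libraries were above both CB libraries, against 28.8% of all genes. The promoters of the 2 members with the smallest p that hold the kappa B consensus, the site of NF-kB dimers, are shown. Both genes encode parts of the pathway itself. Capitals mark the matches. In the first promoter 2 of its 3 matches overlap each other.
Nfkb2, chr19:46304487-46304756, plus strand: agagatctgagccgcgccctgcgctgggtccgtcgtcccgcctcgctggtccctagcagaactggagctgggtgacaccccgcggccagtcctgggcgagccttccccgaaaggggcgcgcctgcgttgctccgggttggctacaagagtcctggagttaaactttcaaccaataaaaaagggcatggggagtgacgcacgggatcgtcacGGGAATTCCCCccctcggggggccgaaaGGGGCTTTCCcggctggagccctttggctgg
Bcl3, chr7:19822736-19823005, minus strand: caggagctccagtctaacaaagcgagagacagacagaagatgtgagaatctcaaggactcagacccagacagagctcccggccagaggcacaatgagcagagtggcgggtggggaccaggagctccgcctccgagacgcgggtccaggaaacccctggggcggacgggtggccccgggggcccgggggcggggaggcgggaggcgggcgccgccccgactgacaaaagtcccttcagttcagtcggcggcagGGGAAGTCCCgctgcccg
In windows of 300 bases, the kappa B consensus was found in 41.2% of the 34 promoters matched to listed genes, in 4.51% of all promoters and in 5.01% of those of the genes tested. The list was made of known subunits, inhibitors and targets of NF-kB, so its share may follow from that choice. Nfkb2, the precursor of p52, stood at 53.83 and 55.54 CPM in CB and 125.6 and 117.8 CPM in CC (log2 1.15, SE 0.121, edgeR adjusted p = 0.000472). Bcl3, an IkB-like coactivator gene that pairs with p50 and p52, stood at 12.52 and 11.73 CPM in CB and 38.75 and 35.68 CPM in CC (log2 1.62, SE 0.177, edgeR adjusted p = 0.000596). Each CC library of both genes was over 2-fold above either CB library. Among the other subunit genes, named for their roles, Relb went from 22.27 and 22.29 CPM to 51.26 and 40.99 CPM (log2 1.05, SE 0.142) and Nfkb1 from 187.9 and 183.2 CPM to 247 and 245.4 CPM (log2 0.41, SE 0.0987). Rel and Rela did not pass, with log2 changes of 0.37 (SE 0.169) and 0.24 (SE 0.136). The inhibitor genes Nfkbia (46.36 and 53.18 CPM in CB, 88.49 and 96.6 CPM in CC) and Tnfaip3 (63.5 and 69.37 CPM, 111.4 and 121.4 CPM) did not overlap between the fractions but did not pass (edgeR adjusted p = 0.0713 and 0.342). Among target genes, the chemokine gene Ccl22 was at 0.03662 and 0 CPM in CB and at 1.465 and 4.934 CPM in CC. It was chosen once its values had been seen, and its call was lost without HOMO CB library 3 or CC library 3 (edgeR adjusted p up to 0.125). Nfkb2, Bcl3, Relb, Cd83, Il4i1 and Ebi3 kept their calls without any 1 library, and Nfkb1 lost its call without any 1 HOMO library or WT CB library 1 (edgeR adjusted p up to 0.294). The list held 6 to 8 calls when 1 HOMO library was left out and 24 with only the 4 HOMO libraries.

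Genes of T cell help and cytokine response rose more often than they fell. Of 23 genes of T cell help and costimulation 6 rose and 2 fell, against 2.46% and 2.98% of all genes, with a median log2 change of 0.36. Cd40, the receptor for the main T cell help signal, stood at 29.85 and 30.2 CPM in CB and 68.84 and 62.06 CPM in CC (log2 1.12, SE 0.154, edgeR adjusted p = 0.00195). Cd86, a costimulatory ligand widely used as a light zone marker, stood at 138.7 and 123.7 CPM in CB and 228.2 and 215 CPM in CC (log2 0.76, SE 0.103). Slamf1, a homophilic receptor gene, went from 80.38 and 70.37 CPM to 140.4 and 131.3 CPM (log2 0.85, SE 0.107). The fractions were separate for each of the 3. The falls were in 2 relatives of Slamf1, namely Slamf7 (282 and 280.1 CPM in CB, 144 and 148 CPM in CC, log2 -0.94) and Slamf6 (log2 -0.67). Of 32 cytokine receptor and JAK-STAT genes 6 rose and 1 fell (10 and 2 with the replicate block), with a median of 0.31. Fcer2a, the low-affinity IgE receptor CD23 and an interleukin 4 response gene, stood at 74.75 and 56.12 CPM in CB and 265.9 and 213.4 CPM in CC (log2 1.88, SE 0.23, edgeR adjusted p = 0.00118). Jak3, the kinase of the common gamma chain, stood at 56.62 and 59.27 CPM in CB and 118.7 and 112.1 CPM in CC (log2 0.99, SE 0.129). Il21r, the interleukin 21 receptor gene, rose by log2 0.65, and the kinase gene Pim1 fell by 0.76 on the log2 scale. Calls of Cd40, Slamf1, Slamf7, Fcer2a and Jak3 were kept without any 1 library. Without HOMO CB library 3 that of Cd86 was lost (edgeR adjusted p = 0.0515), without HOMO CC library 2 that of Pim1 (0.0531), and without HOMO CC library 2, CB library 3 or CC library 3 those of Slamf6 and Il21r (up to 0.141 and 0.121). Fcer2a is also made by follicular and marginal zone B cells and by follicular dendritic cells, and it was listed with the markers of both.

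Of 30 genes of B cell receptor signalling 5 rose and 0 fell, against 2.46% and 2.98% of all genes, and the list's median was 0.10. With the replicate block 8 rose and 1 fell, and with only the 4 HOMO libraries 14 rose and 6 fell. The complement receptor gene Cr2 (CD21), a coreceptor, went from 482 and 464.7 CPM to 880.3 and 819 CPM (log2 0.84, SE 0.105, edgeR adjusted p = 0.00112), while Sh3bp2, an adaptor gene, went from 16.41 and 15.4 CPM to 30.88 and 34.82 CPM (log2 1.05, SE 0.133). Both kept their calls without any 1 library, while those of the kinase gene Fyn (log2 0.61) and the calcium channel gene Itpr1 (0.83) were lost without any 1 HOMO library (edgeR adjusted p up to 0.268 and 0.23), and that of Itpr1 with the GC content offset (0.0588). Among 22 inhibitory receptors and phosphatases 5 rose and 0 fell (7 and 2 with the replicate block), with a median of 0.28. Cd72, an inhibitory coreceptor gene, went from 103.3 and 93.93 CPM to 198.8 and 201.6 CPM (log2 1.02, SE 0.193), and Cd22 from 867.4 and 803.7 CPM to 1315 and 1223 CPM (log2 0.60, SE 0.145). Pirb rose by log2 1.40 and Pag1 by 0.42. All of these calls were lost without any 1 HOMO library (edgeR adjusted p up to 0.13 for Cd72, 0.285 for Cd22, 0.247 for Pirb and 0.285 for Pag1), those of Cd22 and Pag1 also without WT CB library 1, and that of Pag1 without the low-count filter (0.0538). Of 26 immediate early genes, which respond within minutes to receptor signals, 3 rose and 1 fell (8 and 4 with the replicate block). Egr1 stood at 24.98 and 29.02 CPM in CB and 65.06 and 69.46 CPM in CC (log2 1.31, SE 0.166, edgeR adjusted p = 0.00119) and kept its call without any 1 library. Egr3 rose by log2 1.81 and the phosphatase gene Dusp2 by 0.46, and the phosphatase gene Dusp5 fell by 0.90 on the log2 scale. The Egr3 call was lost without HOMO CB library 2, CC library 2 or CB library 3 (edgeR adjusted p up to 0.163), that of Dusp5 without HOMO CB library 2 or CC library 3 (up to 0.0861), and that of Dusp2 without any 1 HOMO library or WT CB library 1 or 2 (up to 0.32) and with the GC content offset (0.381).

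Antigen presentation rose in part. Of 19 genes of MHC class II presentation 5 rose and 1 fell (9 and 1 with the replicate block), with a median of 0.35. Over all genes tested, 2.46% rose and 2.98% fell. The reductase gene Ifi30, which opens antigens for class II loading, stood at 79.87 and 71.35 CPM in CB and 177.9 and 153.7 CPM in CC (log2 1.13, SE 0.166, edgeR adjusted p = 0.00291). Ciita, the master transactivator of class II genes, went from 551.5 and 523.3 CPM to 828.9 and 803.5 CPM (log2 0.60, SE 0.105), and the peptide exchange gene H2-DMb1 rose by log2 0.61. The gene that fell was March1, whose product is a ubiquitin ligase that removes class II and CD86 from the surface: it stood at 383.7 and 370.8 CPM in CB and 216.6 and 224.2 CPM in CC (log2 -0.78, SE 0.107, edgeR adjusted p = 0.00204). March1 kept its call without any 1 library. The Ifi30 call was lost without HOMO CB library 3 (edgeR adjusted p = 0.0519) and those of Ciita and H2-DMb1 without any 1 HOMO library (up to 0.121 and 0.13). Of 22 genes of MHC class I presentation 4 rose and 0 fell (7 and 0 with the replicate block), with a median of 0.17: the loading gene Tapbp (log2 0.70), H2-Q6 (0.79), H2-K1 (0.45) and the transactivator gene Nlrc5 (0.59). Their calls were lost without any 1 HOMO library (edgeR adjusted p up to 0.112, 0.181, 0.268 and 0.241). Those of H2-Q6, H2-K1 and Nlrc5 were also lost with the GC content offset (0.116, 0.104 and 0.127), and reads of H2-Q6 and H2-K1 may be shared with their near-identical relatives. Of 30 interferon-stimulated genes 0 rose and 1 fell (2 and 1 with the replicate block), namely Gbp3, which went from 23.07 and 21.82 CPM to 15.87 and 13.66 CPM (log2 -0.60, SE 0.141, edgeR adjusted p = 0.0319). That call was lost without any 1 HOMO library or WT CB library 1 (edgeR adjusted p up to 0.252) and without the low-count filter (0.0613).

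Genes known as dark zone genes outside the cell cycle fell in 10 of 20 cases and rose in none, against 2.98% of all genes falling. The list's median was -0.67. It was made of genes known as dark zone genes, with earlier results of these data known, so the falls may follow from that choice. Besides Cxcr4, Gcsam and Gcnt3, the error-prone polymerase gene Polh stood at 293.1 and 335.8 CPM in CB and 116.1 and 128.7 CPM in CC (log2 -1.36, SE 0.142, edgeR adjusted p = 0.000472). The end-joining ligase gene Lig4 stood at 73.5 and 77.75 CPM in CB and 28.68 and 33.21 CPM in CC (log2 -1.29, SE 0.141). Neither overlapped between the fractions. The list had 6 to 9 calls without 1 HOMO library, and Cxcr4, Gcsam, Gcnt3, Polh, Lig4 and Lmo4 kept theirs without any 1 library. Among 28 genes of hypermutation and its repair 4 fell and 1 rose, against 2.98% and 2.46% of all genes, with a median of -0.06. The mismatch repair gene Msh3 went from 176 and 186.2 CPM to 116 and 116.5 CPM (log2 -0.64, SE 0.0952), a call lost without HOMO CC library 2 or CB library 3 (edgeR adjusted p up to 0.0613). Apobec1, a cytidine deaminase gene, fell by 0.54 on the log2 scale and the base excision gene Apex1 rose by log2 0.66, both lost without any 1 HOMO library (edgeR adjusted p up to 0.254 and 0.273), and that of Apobec1 also without WT CB library 1 and with upper-quartile scaling (0.0562). Of 36 DNA break repair and checkpoint genes 1 rose, Fanca (log2 0.60), and 1 fell, Lig4, shares near those of all genes (2.46% and 2.98%). The Fanca call was lost without any 1 HOMO library or WT CB library 1 (edgeR adjusted p up to 0.262).

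Receptors that place cells in the follicle moved both ways, with 2 of 20 higher and 3 lower (6 and 4 with the replicate block). Over all genes tested, 2.46% rose and 2.98% fell, and the list's median was 0.16. Ackr4, a scavenger of the chemokines CCL19 and CCL21, stood at 68.96 and 70.64 CPM in CB and 19.96 and 18.03 CPM in CC (log2 -1.88, SE 0.183, edgeR adjusted p = 0.000422). S1pr3, a sphingosine 1-phosphate receptor gene, stood at 39.22 and 31.83 CPM in CB and 99.84 and 89.2 CPM in CC (log2 1.42, SE 0.171). Gna13, the G protein that confines germinal center B cells, went from 654.8 and 631.9 CPM to 414.8 and 468 CPM (log2 -0.54, SE 0.111). Further receptors, named for their roles, did not pass: Cxcr5 stood at 197.7 and 172.5 CPM in CB and 273.2 and 270.7 CPM in CC (edgeR adjusted p = 0.0512), S1pr2 at 364.8 and 330.4 CPM and 299.2 and 269 CPM (0.223), and Gpr183 at 2.197 and 2.837 CPM and 5.859 and 8.16 CPM (0.28). Of 30 adhesion and motility genes 2 rose and 4 fell (6 and 5 with the replicate block), against 2.46% and 2.98% of all genes, with a median of -0.01. The integrin gene Itgb3 went from 105.5 and 107.1 CPM to 37.11 and 45.07 CPM (log2 -1.37, SE 0.151), the hyaluronan receptor gene Cd44 also fell (log2 -0.70), and the integrin ligand gene Icam1 rose (log2 0.64). Ackr4, S1pr3 and Itgb3 kept their calls without any 1 library. Those of Gna13 and Cd44 were lost without any 1 HOMO library (edgeR adjusted p up to 0.189 and 0.128), and that of Icam1 without HOMO CB library 2, CC library 2 or CB library 3 (up to 0.0779). None of 11 RGS genes, which curb G protein signals, passed in the fit over 10 libraries, and 2 were near the threshold. Rgs12 stood at 14.87 and 15.36 CPM in CB and 8.361 and 9.299 CPM in CC (log2 -0.78, SE 0.205, edgeR adjusted p = 0.0516), and Rgs3 at 5.75 and 5.119 CPM and 10.01 and 8.73 CPM (log2 0.79, SE 0.239, 0.0835). Neither overlapped between the fractions. Rgs12 passed in 11 alternatives, among them the replicate block (edgeR adjusted p = 0.0145) and DESeq2 (0.0101), and Rgs3 in 4, among them the block (0.0306) and DESeq2 (0.0297). With only the 4 HOMO libraries 2 RGS genes rose and 3 fell.

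Among genes of growth, those that build ribosomes rose most often. Of 50 genes of ribosome biogenesis and RNA polymerase I, which make ribosomal RNA and assemble ribosomes, 13 rose and 0 fell, with a median of 0.35. This compares with 2.46% of all genes rising and 2.98% falling. Rrp12 went from 20.87 and 21.37 CPM to 41.44 and 47.63 CPM (log2 1.07, SE 0.117, edgeR adjusted p = 0.000596), and Polr1b, which codes for part of that polymerase, from 25.01 and 25.52 CPM to 50.17 and 54.28 CPM (log2 1.05, SE 0.121). The polymerase subunit gene Polr1a rose by log2 0.69 and the nucleolar gene Gnl3 by 0.86. Both CC libraries were above both CB libraries in 43 of the 50 genes, against 28.8% of all genes. The E-box CACGTG, which MYC and MAX bind, was in 18.5% of the 54 promoters of these genes, in 7.15% of all, in 9.79% of those of the genes tested and in 12.8% of those of genes higher in CC. Rrp12 and Polr1b kept their calls without any 1 library, and the list had 3 or 4 calls without 1 HOMO library and 37 with only the 4 HOMO libraries. The Polr1a call was lost without HOMO CB library 2 or 3 (edgeR adjusted p up to 0.0554), and that of Gnl3 without HOMO CB library 2, CC library 2 or CC library 3 (up to 0.0886). None of 76 cytosolic ribosomal protein genes and none of 53 nuclear respiratory chain genes passed by edgeR (1 ribosomal protein gene fell with the replicate block), with medians of -0.05 and -0.20. The first median was 0.01 with upper-quartile scaling, and with only the 4 HOMO libraries 7 ribosomal protein genes were higher and 11 lower, and 18 respiratory chain genes were lower. In the respiratory chain Sdhb, for example, stood at 86.02 and 88.02 CPM in CB and 58.59 and 54.85 CPM in CC (log2 -0.62, SE 0.184, edgeR adjusted p = 0.0796). It passed in 6 alternatives, among them DESeq2 (adjusted p = 0.0192), the GC content offset (0.0167), no low-count filter (0.00115) and the fit without WT CB library 3 (0.00356). Of 23 cytosolic aminoacyl-tRNA synthetase genes 1 fell and 0 rose (2 and 0 with the replicate block), namely Dars (log2 -0.53), a call lost without any 1 HOMO library (edgeR adjusted p up to 0.17) and with the GC content offset (0.124).

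Among 12 genes of the MYC, MAX and MXD network, Myc and the antagonist gene Mxd4 rose (89.21 and 86.21 CPM in CB, 145.9 and 160.2 CPM in CC, log2 0.80) and none fell. For this and the next lists, the shares over all genes were 2.46% rising and 2.98% falling. Of 25 polyamine and one-carbon genes 5 rose and 0 fell (10 and 2 with the replicate block), with a median of 0.26. Srm, the spermidine synthase gene, went from 10.77 and 13.13 CPM to 26.06 and 30.08 CPM (log2 1.23, SE 0.147, edgeR adjusted p = 0.000978), and Shmt1, a folate enzyme gene, from 24.87 and 25.95 CPM to 52.36 and 49.34 CPM (log2 1.00, SE 0.125). The pyrimidine synthesis gene Cad rose by log2 0.74 and the folate enzyme gene Mthfd1 by 0.57. Of 16 amino acid and glucose transporter genes 3 rose and 0 fell, among them the amino acid transporter gene Slc7a5 (log2 0.51) and Slc19a1 (1.27), whose product carries folate rather than amino acids or glucose. Of 32 genes of cholesterol and fatty acid synthesis 4 rose and 0 fell (9 and 1 with the replicate block), with a median of 0.29, namely the synthesis genes Acaca (88.22 and 91.36 CPM in CB, 151.4 and 139.1 CPM in CC, log2 0.69), Fasn (0.47) and Mvd (0.84) and the exporter gene Abcg1 (1.64). Of 20 glycolysis genes 2 rose, Aldoc (log2 1.16) and Pfkfb3 (0.42), and of 24 heat shock and chaperone genes 1 (3 with the replicate block), Hspa9 (0.57). Only Myc, Srm and Shmt1 among these genes kept their calls without any 1 library. Calls lost without any 1 HOMO library were those of Mxd4, Cad, Mthfd1, Acaca, Abcg1, Fasn, Slc7a5, Mvd, Pfkfb3 and Hspa9 (highest edgeR adjusted p 0.0902, 0.0849, 0.194, 0.138, 0.184, 0.219, 0.303, 0.306, 0.299 and 0.21). Of these, the last 4 were also lost without WT CB library 1 and the 3 before Hspa9 without WT CB library 2. Slc7a5 and Mvd were lost without WT CC library 1, and Slc7a5 without WT CC library 2. Slc19a1 was lost without HOMO CB library 3 or CC library 3 (edgeR adjusted p up to 0.0881) and Aldoc without HOMO CB library 2, CC library 2 or CB library 3 (up to 0.0828). The GC content offset ended the calls of Slc7a5 (0.105) and Fasn (0.11), and leaving out the low-count filter that of Pfkfb3 (0.114).

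Of 31 factors of germinal center identity 5 fell and 1 rose (7 and 4 with the replicate block). The shares over all genes were 2.98% falling and 2.46% rising. Bach2, a repressor that keeps B cells from becoming plasma cells, stood at 1405 and 1436 CPM in CB and 763.8 and 777 CPM in CC (log2 -0.88, SE 0.125, edgeR adjusted p = 0.00236). Pou2af1, a B cell coactivator gene, stood at 1485 and 1429 CPM in CB and 743.5 and 737.2 CPM in CC (log2 -0.98, SE 0.157), and Foxo1, a factor of the dark zone state, at 376.1 and 352.6 CPM and 245.6 and 254.1 CPM (log2 -0.54, SE 0.103). The cofactor gene Lmo2 rose, from 32.81 and 28.78 CPM to 79.64 and 70.31 CPM (log2 1.29, SE 0.218). Bcl6, the master regulator of the germinal center, stood at 507.9 and 453.3 CPM in CB and 420.3 and 424.1 CPM in CC and did not pass (log2 -0.19, SE 0.171). Of 20 memory B cell genes 3 rose and 2 fell (8 and 3 with the replicate block), with a median of 0.45. Zeb2 went from 21.72 and 20.13 CPM to 59.14 and 48.39 CPM (log2 1.36, SE 0.178), Hhex and the corepressor gene Tle3 (log2 0.94) also rose, and Nt5e, the CD73 ectoenzyme gene, went from 124.2 and 114 CPM to 49.68 and 56.74 CPM (log2 -1.16, SE 0.139). Of 19 plasma cell genes 1 rose and 1 fell (2 and 4 with the replicate block). Derl3, a secretory pathway gene, went from 11.21 and 9.946 CPM to 25.27 and 27.04 CPM (log2 1.31, SE 0.157), and the antibody joining chain gene Jchain from 666 and 617 CPM to 245 and 231 CPM (log2 -1.43, SE 0.24). Irf4 and Prdm1, the factors of plasma cell fate, did not pass: Irf4 stood at 48.12 and 50.28 CPM in CB and 88.55 and 97.92 CPM in CC, and Prdm1 at 4.871 and 3.744 CPM and 7.934 and 6.832 CPM (edgeR adjusted p = 0.258 and 0.53). Bcl6, Irf4 and Prdm1 were singled out for their roles. Zeb2, Nt5e and Derl3 kept their calls without any 1 library. Bach2 lost its call without HOMO CC library 2 (edgeR adjusted p = 0.0531), Pou2af1 without HOMO CC library 2 or 3 (up to 0.0674), Lmo2 without HOMO CC library 2 or CB library 3 (up to 0.0889), Tle3 without HOMO CC library 2, CB library 3 or CC library 3 (up to 0.0915), and Foxo1 and Jchain without any 1 HOMO library (up to 0.132 and 0.0816).

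Of 28 BCL2 family and death genes 5 rose and 1 fell, against 2.46% and 2.98% of all genes. The caspase inhibitor gene Birc3, an NF-kB target, stood at 109.1 and 106.5 CPM in CB and 171.6 and 161 CPM in CC (log2 0.63, SE 0.097, edgeR adjusted p = 0.00386). The prosurvival genes Bcl2a1d and Bcl2a1b rose by log2 1.59 and 1.17. Bcl2l1, which encodes BCL-XL and was named for its role, rose from 16.55 and 18.81 CPM to 30.58 and 27.9 CPM (log2 0.72, SE 0.173), and the prodeath gene Bid rose by log2 0.61. The gene that fell, Bcl2l11, encodes the prodeath protein BIM (100.3 and 102.6 CPM in CB, 58.22 and 61.77 CPM in CC, log2 -0.76, SE 0.192, edgeR adjusted p = 0.0433). None of these calls was kept without every single library: that of Birc3 was lost without HOMO CB library 2, CC library 2 or CB library 3 (edgeR adjusted p up to 0.0819), and the others without any 1 HOMO library (up to 0.272 for Bcl2l1, 0.26 for Bcl2l11, 0.248 for Bid, 0.102 for Bcl2a1b and 0.127 for Bcl2a1d), with Bcl2l1, Bcl2l11 and Bid also lost without WT CB library 1 and Bcl2l11 without WT CC library 2. Bcl2a1b and Bcl2a1d are near-identical copies, so their reads could be shared. Of 22 genes of p53 and its targets 2 fell and 0 rose (3 and 1 with the replicate block), namely Trp53i11 (425.9 and 443.2 CPM in CB, 213.3 and 209.4 CPM in CC, log2 -1.04), kept without any 1 library, and Mdm2 (log2 -0.38), lost without any 1 HOMO library (edgeR adjusted p up to 0.265), WT CB library 1 or 2 or WT CC library 2, with upper-quartile scaling (0.0792), without the low-count filter (0.108) and with the GC content offset (0.0659). Among 12 immunoglobulin constant genes Ighg3 (427.4 and 444.2 CPM in CB, 249.3 and 257.1 CPM in CC, log2 -0.78) and Ighg2b (log2 -0.69) fell and none rose. Both calls were lost without any 1 HOMO library (up to 0.159 and 0.291).

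Of the remodeller genes themselves, 1 passed in the fit over 10 libraries. Pbrm1 (chromosome 14, 31019138 to 31121592) stood at 177.8 and 163.9 CPM in CB and 151.8 and 150.4 CPM in CC (log2 -0.18, SE 0.0935, edgeR adjusted p = 0.348), counts that cover the whole gene and so do not show whether function was lost. Smarca4 (chromosome 9, 21616169 to 21704230) was the 1 gene of 28 SWI/SNF subunits to pass, where 2.46% of all genes rose and 2.98% fell. It stood at 786.4 and 872 CPM in CB and 380 and 403.2 CPM in CC (log2 -1.08, SE 0.136, edgeR adjusted p = 0.00119). This call was kept without any 1 library. Each CB library was about 2-fold above either CC library. The PBAF genes Arid2, Brd7 and Phf10 had log2 changes of -0.15 (SE 0.129), -0.06 (SE 0.141) and -0.26 (SE 0.153) and did not pass by edgeR (adjusted p of at least 0.41), though Phf10 passed with only the 4 HOMO libraries (0.0266). In that fit 1 SWI/SNF subunit gene rose and 9 fell, and with the replicate block 1 rose and 3 fell. Of 46 other chromatin genes 3 rose and 0 fell (5 and 0 with the replicate block): the DNA methyltransferase gene Dnmt3a (22.3 and 21.59 CPM in CB, 44.8 and 43.93 CPM in CC, log2 1.02), the demethylase gene Tet2 (19.67 and 16.64 CPM, 39.91 and 36.15 CPM, log2 1.07) and the acetyltransferase gene Kat2a (log2 0.57). Without HOMO CB library 3 the Dnmt3a and Tet2 calls were lost (edgeR adjusted p up to 0.0577 and 0.12), that of Tet2 also without HOMO CC library 2, and that of Kat2a without any 1 HOMO library or WT CB library 1 or 2 (up to 0.295). Of 17 abundant noncoding RNAs 1 rose and 0 fell (3 and 2 with the replicate block), namely the snoRNA host gene Gas5 (log2 0.49), whose call was lost without any 1 HOMO library or WT CB library 1 (up to 0.252).

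**Figure D3:**
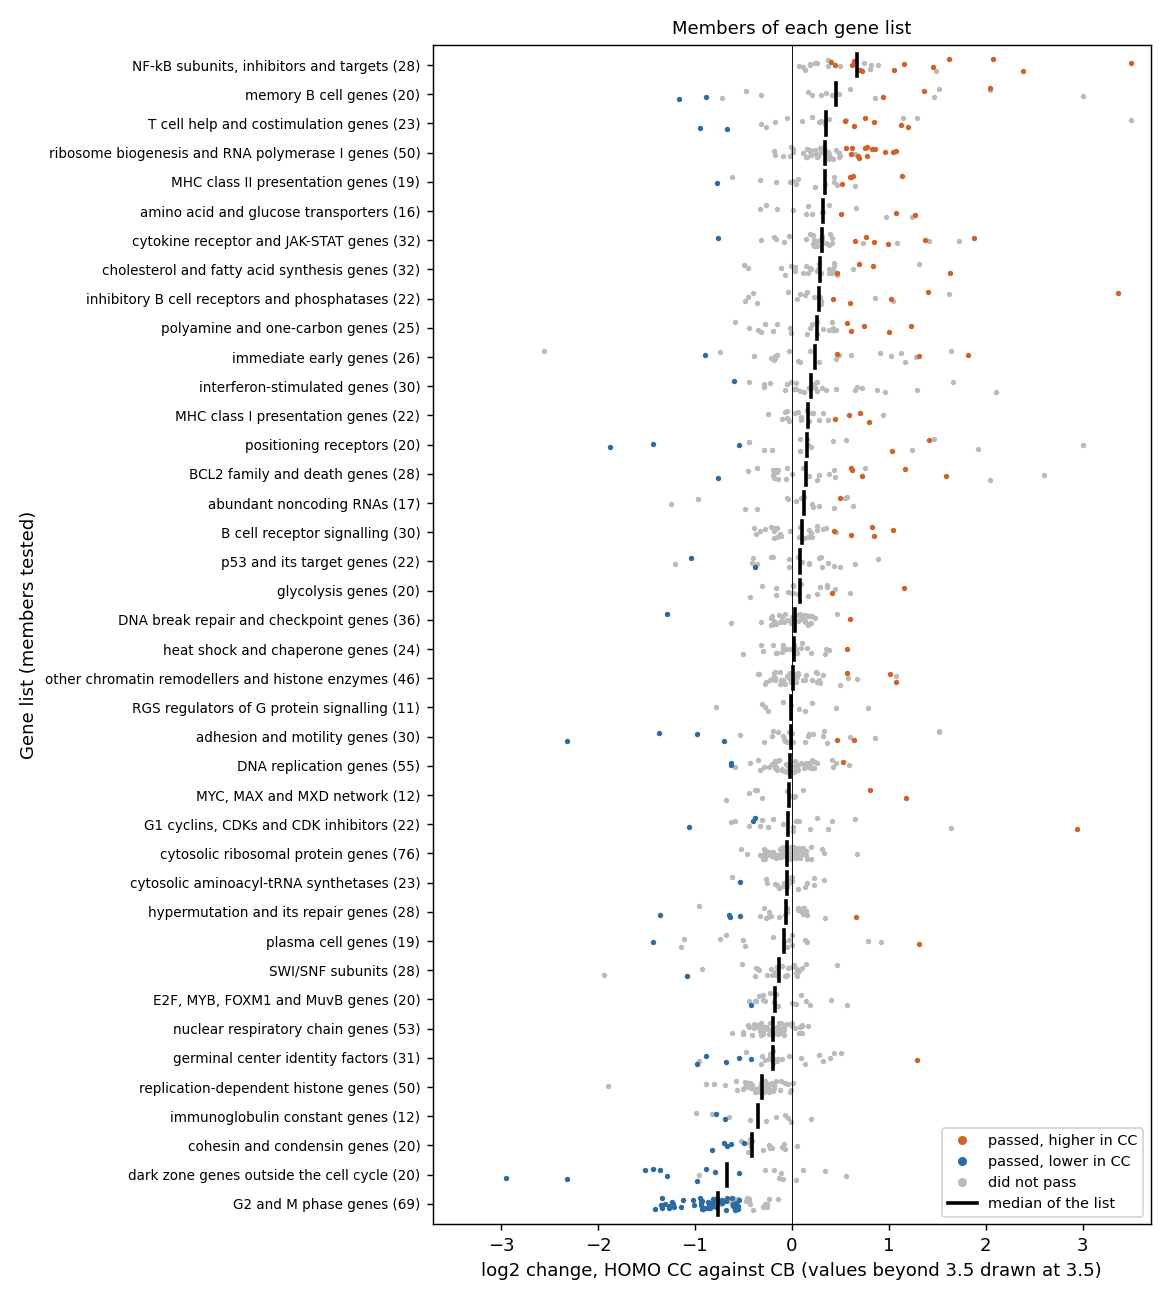
Log2 change of CC against CB in HOMO (x axis, values beyond 3.5 drawn at 3.5) for the members of each gene list (y axis, with the number tested), in order of the list's median. Orange and blue points passed as higher or lower in CC, grey points did not pass, and black bars are medians; the G2 and M phase list (median -0.76, 50 of 69 lower) and the NF-kB list (median 0.67, 13 of 28 higher) lie toward the ends of the order.

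The same contrast in WT, which shares no library with it but shares the estimate of spread, called more genes: 1917 rose (11.6%) and 2048 fell (12.3%). Of the HOMO calls, 395 rises and 478 falls were also called in the same direction in WT, or 96.6% of the HOMO rises and 96.6% of the HOMO falls, and 20.6% and 23.3% of the WT calls. All 904 had the same sign in WT and none was called in the opposite direction. The median WT log2 change was 0.92 for genes called higher in HOMO and -0.83 for those called lower, against 0.87 and -0.79 in HOMO itself. Side by side, the HOMO and WT log2 changes were 1.45 and 1.31 for Cd83, 1.18 and 1.13 for Myc, -1.43 and -1.89 for Cxcr4 and -2.32 and -2.47 for Gcsam. They were -1.08 and -1.10 for Smarca4 and 2.94 and 3.49 for Ccnd2. List medians were 0.67 and 0.65 for NF-kB genes and 0.35 and 0.31 for ribosome biogenesis genes. They were -0.76 and -0.98 for G2 and M phase genes and -0.31 and -1.13 for replication-dependent histone genes. Of these histone genes 43 fell in WT and 0 in HOMO, or 35 in HOMO with only the 4 HOMO libraries. Their summed CPM went from 13300 and 13781 in CB to 4936 and 5901 in CC of WT libraries 1 and 2. In WT library 3 it went from 7739 to 6435, and in HOMO from 9655 and 9768 to 7843 and 7701. The difference of the changes was tested as an interaction, and 0 genes passed by edgeR (434 at an unadjusted p under 0.05, smallest adjusted p 1). DESeq2 also gave 0 (475 at an unadjusted p under 0.05). The 4 genes with the smallest interaction p were Tspan9, Tmem205, Gm26648 and Lgr5, the first 3 below 1 CPM in the HOMO libraries. Lgr5, an R-spondin receptor gene, went from 23.51 and 25.19 CPM to 6.042 and 5.409 CPM in HOMO, a log2 change of -2.08 against -2.88 in WT. The interaction count was 36 without WT CB library 3, 35 of them with a lower log2 change in HOMO than in WT, and 5 without WT CC library 3. No list was tested for a difference between the genotypes.

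**Figure D4:**
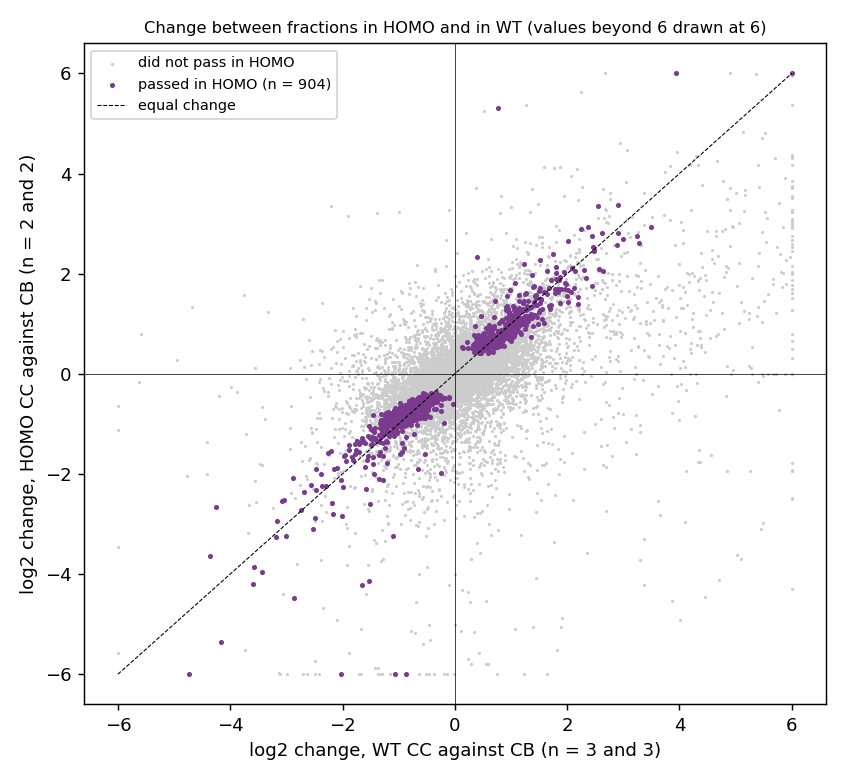
Log2 change of CC against CB in WT (x axis, 3 and 3 libraries) and in HOMO (y axis, 2 and 2 libraries), with values beyond 6 drawn at 6. Purple points are the 904 genes that passed in HOMO, grey points are other genes tested and the dashed line marks equal change; every purple point lies on the same side of 0 on both axes.

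Markers of other cells ranged in sum from 0.8191 CPM for erythroid cells to 1821 CPM for naive and marginal zone B cells, and their share of each result was not tested. T cell markers, 16 tested, summed to 9.741 and 10.3 CPM in CB and 20.26 and 16.42 CPM in CC. Cd3e was at no more than 1.77 CPM. In 10 of the 16 both CC libraries were above both CB libraries, against 28.8% of all genes. The part of T cells in the rise of the costimulation genes was not tested. Macrophage markers summed to 334.7 and 281.3 CPM in CB and 266.8 and 247.7 CPM in CC, of which Apoe gave 304.3, 265.3, 226.6 and 211.5 CPM. In 13 of the 20 macrophage markers both CC libraries were above both CB libraries, against 28.8% of all genes. None of the 20 passed by edgeR (2 rose and 1 fell with the replicate block). C1qa, C1qb, C1qc and Mertk each stood below 2 CPM in every HOMO library, and Fcgr1 was at 0 in all 4. Neutrophil markers differed by library number and not by fraction, at 181.4 and 162.9 CPM in CB and CC of number 2 and 10.49 and 25.05 CPM in number 3. None of the 12 tested passed by edgeR (1 rose and 0 fell with the replicate block). Plasma cell markers summed to 821.5 and 763.1 CPM in CB and 383.6 and 358.5 CPM in CC, a fall carried largely by Jchain. Of the 8 tested, 1 rose and 1 fell (1 and 3 with the replicate block), against 2.46% and 2.98% of all genes. Naive and marginal zone B cell markers summed to 1122 and 1055 CPM in CB and 1821 and 1693 CPM in CC. Cr2 and Fcer2a were the 2 of 14 that passed, both higher, against 2.46% of all genes rising. With the replicate block 5 of these markers rose and 0 fell. Follicular dendritic and stromal markers, 3 tested, summed to 191.6 and 177.7 CPM in CB and 368.3 and 304.4 CPM in CC, with Fcer2a the 1 that rose. In bulk libraries like these, a change in the share of a cell type and a change in RNA per cell cannot be told apart. The 12 mitochondrially encoded genes tested summed to 12740 and 11644 CPM in CB and 9354 and 9077 CPM in CC, and none passed by edgeR (list median -0.64, or -0.37 with the GC content offset). In 11 of them both CC libraries were below both CB libraries, against 33.2% of all genes, and with only the 4 HOMO libraries 6 fell.

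**Figure D5:**
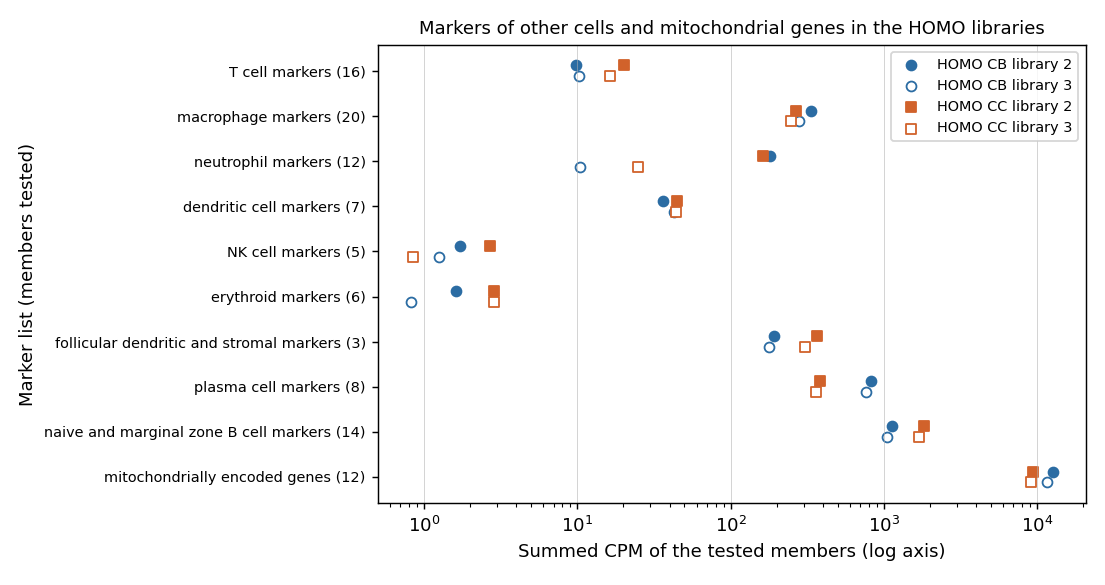
Summed CPM of the tested members (x axis, log scale) of each list of markers of other cells and of the mitochondrially encoded genes (y axis) in the 4 HOMO libraries. Circles are CB and squares CC, filled for library 2 and open for library 3; neutrophil markers separate by library number (181.4 and 162.9 CPM against 10.49 and 25.05 CPM), while plasma cell and naive B cell markers separate by fraction.

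Base composition moved with the calls as it did with the fractions. The median GC content was 52.9% for genes that rose, 46.0% for genes that fell and 49.0% for all genes tested with a GC value. In the fifth of genes with the lowest GC content 16 rose and 158 fell, and in the fifth with the highest 143 rose and 45 fell. With the GC content offset these numbers became 74 and 99, and 136 and 130. Of the 904 calls, 762 were also called with the offset, and the total was then 1128. Calls were also more frequent at higher levels, at 11.7% of genes with an average log2 CPM over 6, 7.23% between 3 and 6, 2.42% between 0 and 3 and 0.309% below 0. Under the offset the median was 0.60 for NF-kB genes and -0.53 for dark zone genes.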

How the data were processed

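RNA of germinal center B cells of the CB and CC fractions was sequenced after ribosomal RNA depletion (KAPA RNA HyperPrep with RiboErase, per the labels' protocols). The deposited values are raw counts of reads per gene; STAR, featureCounts of Subread, FastQC, R 4.2.1 and the build mm10 are listed in the submitters' processing notes. How strand and multimapping reads were handled is not stated there or in the labels. From these counts, edgeR 4.0.16 in R 4.3.3 fitted 4 group means over all 10 libraries (6 residual degrees of freedom), with TMM scaling, filterByExpr (minimum count 10, total 15), the robust quasi-likelihood F-test and Benjamini-Hochberg adjustment over 16596 genes (called under 0.05). Its common biological coefficient of variation came to 23.1%. On data simulated for this comparison (15980 genes), 13.4% of genes changed 1.5-fold, 70.1% of those changed 2-fold and 100% of those changed 4-fold were recovered. There were 7 false calls. The changed genes, 67, 67 and 66 in this order, all had a mean of at least 5 CPM. Apart from these changes, all groups were drawn from the same mean and the same spread per gene. In the real data more genes were called and the spread differed by group, so these rates may not hold there.

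Gene coordinates come from the deposited count table, and all 54673 identifiers found in GENCODE M21 on mm10 had the same coordinates there. Motifs and sequences come from RefSeq promoters of GRCm38.p6. Gene lists (50) and the naming rule were chosen with earlier results of these data known. Named genes are the 4 markers, 5 remodeller genes, up to 12 largest rises and 12 largest falls (a mean of at least 5 CPM in the higher group, no overlap), per list up to 4 called members in order of p, or 2 members where none was called, and the 4 smallest interaction p. Others, Slamf6, Lmo4 and Bcl2l11 among them, were chosen for their roles after their values were seen. Some members of the lists are not reported here. Alternatives were DESeq2 1.42.0, RLE and upper-quartile scaling, other low-count filters, a GC content offset (loess, span 0.5, log2 CPM of at least 3), a replicate block, the 4 HOMO libraries alone and leaving out libraries. The main fit assumed no pairing. Only in the replicate block were CB and CC libraries with the same number in the count columns (HOMO) or titles (WT) taken as paired. Their deviations from the group means correlated at 0.323 in HOMO, where 2 pairs give 1 value, and at 0.384, 0.424 and 0.426 in WT. The labels do not say what a number marks, and the HOMO titles use other numbers than the columns. No 2 libraries of a group agreed within sampling noise (chi-square per degree of freedom 4.14 or more).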

Additional observations from a re-analysis of the deposited data

How the results depend on the processing

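The number of genes changed was 904 with edgeR, and 4452 with only the 4 HOMO libraries, 1662 with DESeq2, 1475 without the low-count filter, 1874 with the replicate block, 1532 with the GC content offset and the replicate block, and 0 without HOMO library 2 or 3 in both fractions (1341 and 1231 at an unadjusted p under 0.05). Leaving out 1 library gave 174 to 1586 genes. RLE and upper-quartile scaling, the stricter filter and the GC content offset gave 954, 1002, 1047 and 1128. The genotype by fraction interaction gave 154 genes without the low-count filter and 0 to 36 without 1 library; with only the 4 HOMO libraries it could not be fitted. Of the named genes that did not pass, 2 passed with the replicate block (Rgs12 and Rgs3); with the loss of Ccnd2, it changed no other call among the named genes followed. Of 127 named genes called, 1 lost its call with the block (Ccnd2, edgeR adjusted p = 0.0534), 14 with the GC content offset, 8 without the low-count filter and 5 with upper-quartile scaling; 48 were called without any 1 of the 10 libraries, and no called gene reversed. Pbrm1 had a log2 change of 0.0103 with the GC content offset and 0.0106 with the offset and the replicate block; Brd7 had 0.00206 with upper-quartile scaling, 0.00824 with the offset and 0.00897 with both. The median of 33 lists kept its sign under all alternatives run and that of 17 did not, among them DNA replication, G1, hypermutation, glycolysis and ribosomal protein genes. The cause of these shifts was not tested. Of genes below an average log2 CPM of 0, 0.309% passed, and the part of depth in this was not tested.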

Other observations

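Of the 904 genes called in HOMO, 31 were not called in WT, and none of these passed the interaction by edgeR. Cd52, a surface glycoprotein gene of lymphocytes, stood at 157 and 146 CPM in CB and 275 and 247 CPM in CC of HOMO (log2 0.78, SE 0.189), against a WT log2 change of 0.33. Mif, a cytokine gene whose product binds CD74, stood at 27.3 and 31.6 CPM in CB and 47.8 and 49.2 CPM in CC (log2 0.72, SE 0.175), against 0.38 in WT. In both genes each CC library of HOMO was above either CB library. Sap30, a subunit gene of a histone deacetylase complex, stood at 17.4 and 19.6 CPM in CB and 11.3 and 10.9 CPM in CC (log2 -0.74, SE 0.168), against -0.24 in WT. Cbfb, the partner of the RUNX transcription factors, stood at 242 and 220 CPM in CB and 164.0 and 166 CPM in CC (log2 -0.48, SE 0.116), against -0.18 in WT. Both CC libraries of these genes were below both CB libraries. All 4 calls were lost without any 1 HOMO library (edgeR adjusted p up to 0.265 for Cd52, 0.279 for Mif, 0.247 for Sap30 and 0.291 for Cbfb), those of Cd52, Sap30 and Cbfb also without WT CB library 1, and those of Cd52 and Cbfb without WT CC library 2. The genes of this paragraph were chosen after their values were seen, and the edgeR adjusted p of their interaction was 1.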
